A study of Homo sapiens with 13 samples.

Results

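The 10 genes described here encode the enzymes and the chaperone that modify, fold and crosslink collagen: the prolyl 4-hydroxylase subunits P4HA1 and P4HA2, the lysyl hydroxylases PLOD1 and PLOD2, the collagen chaperone SERPINH1, and the lysyl oxidases LOX, LOXL1, LOXL2, LOXL3 and LOXL4. They were chosen by symbol from a table of 43836 genes. Each matched exactly 1 row, and all 10 passed the filter on low counts that left 17092 genes for testing. Expression was measured by mRNA sequencing of hFOB 1.19, a line of human fetal osteoblasts immortalised with the SV40 large T antigen, so every group came from the same engineered line. Positive controls (PC, 2 libraries) were grown with 10% fetal bovine serum. Negative controls (NC, 2 libraries) were grown without serum. The remaining groups were also grown without serum and were given 1 µg/mL of a compound: resveratrol (RES, 3 libraries), peonidin-3-O-glucoside (POG, 3 libraries) or DEG (2 libraries), a code that the labels leave unexplained. Both controls received the DMSO vehicle per the study's methods. Those methods describe RES or POG added in triplicate to wells of a plate, without saying whether each library came from its own well. Nothing in the labels says that libraries of a group came from separate cultures. The p-values below thus measure only the spread between these libraries, which may be technical.

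Collagen chains are hydroxylated in the endoplasmic reticulum before they fold. Prolyl 4-hydroxylases modify prolines, which holds the triple helix together at body temperature, and lysyl hydroxylases modify lysines, which sets which crosslinks can form later. SERPINH1, also called HSP47, binds the folded triple helix and escorts it out of the endoplasmic reticulum. Outside the cell, the copper-dependent lysyl oxidases convert lysine and hydroxylysine side chains to aldehydes, from which the crosslinks of collagen and elastin form. In bone, this chemistry gives the matrix laid down by osteoblasts its tensile strength. Several of these genes, P4HA1, PLOD2 and LOX among them, are known targets of the hypoxia-inducible factors.

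The promoters of P4HA1, PLOD1, PLOD2 and LOXL1 are printed because these genes moved in opposite directions with POG: P4HA1 and PLOD1 were higher than in NC, PLOD2 and LOXL1 lower. Each sequence runs from 250 bases before to 50 bases after the RefSeq start of the gene, 5′ to 3′ on the strand of the gene, in build GRCh38.p14. The windows lie at chr10:73096817-73097116 (minus strand) for P4HA1, chr1:11934467-11934766 (plus) for PLOD1, chr3:146161135-146161434 (minus) for PLOD2 and chr15:73926212-73926511 (plus) for LOXL1. Capitals mark the core letters of the hypoxia response element, ACGTG or GCGTG, found on either strand.
P4HA1: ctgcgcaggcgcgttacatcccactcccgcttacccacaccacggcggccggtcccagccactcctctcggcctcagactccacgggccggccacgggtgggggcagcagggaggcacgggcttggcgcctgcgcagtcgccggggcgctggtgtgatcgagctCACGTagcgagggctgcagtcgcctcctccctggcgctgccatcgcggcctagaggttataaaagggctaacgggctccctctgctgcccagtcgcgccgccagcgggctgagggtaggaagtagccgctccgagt
PLOD1: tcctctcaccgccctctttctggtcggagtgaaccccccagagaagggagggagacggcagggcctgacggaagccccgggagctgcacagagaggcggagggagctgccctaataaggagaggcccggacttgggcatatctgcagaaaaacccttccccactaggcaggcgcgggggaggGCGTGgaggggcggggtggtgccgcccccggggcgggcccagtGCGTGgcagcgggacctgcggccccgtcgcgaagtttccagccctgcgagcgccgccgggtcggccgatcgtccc
PLOD2: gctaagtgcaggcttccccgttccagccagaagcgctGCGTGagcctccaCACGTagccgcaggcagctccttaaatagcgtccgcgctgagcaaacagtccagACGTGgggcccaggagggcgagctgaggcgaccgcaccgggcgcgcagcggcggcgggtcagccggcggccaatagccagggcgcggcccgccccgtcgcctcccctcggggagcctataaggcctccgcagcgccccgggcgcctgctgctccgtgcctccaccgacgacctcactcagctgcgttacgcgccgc
LOXL1: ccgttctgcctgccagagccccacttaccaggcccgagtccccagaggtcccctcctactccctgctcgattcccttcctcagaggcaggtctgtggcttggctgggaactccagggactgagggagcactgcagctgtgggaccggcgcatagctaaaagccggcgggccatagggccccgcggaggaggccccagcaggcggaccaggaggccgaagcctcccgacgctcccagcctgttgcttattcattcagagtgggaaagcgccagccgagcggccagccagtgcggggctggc

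The core letters occurred once in the P4HA1 window, 2 times in that of PLOD1, 3 times in that of PLOD2 and at no place in that of LOXL1. The 2 cores differ in their first letter, so they cannot start at the same base of 1 strand, and the palindrome CACGTG would hold ACGTG on both strands. They are common: of 35116 promoter windows of this length, 21.4% held ACGTG, 36.5% held GCGTG and 48.4% held either. Among the other members, all 3 LOX windows held a core: 1 held ACGTG 4 times, and each of the others held ACGTG 1 time and GCGTG 1 time. Both SERPINH1 windows held at least 1 core, 1 of the 2 LOXL3 windows held 1, and the LOXL4 and P4HA2 windows held none. The heat shock element letters GAANNTTC, whose reverse complement is the same motif, were in 6.77% of all windows, in that of PLOD1 and in 1 of the 2 windows of SERPINH1, a gene known to be induced by heat shock. In all, 9 of the 10 members had a promoter window, with 13 windows together, and LOXL2 had no window. These numbers count windows, whether or not they held the letters. A match describes the letters and does not show that a factor binds there. Any part of these letters in the members' changes was not tested.

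Library totals ran from 38464619 to 51416358 counted reads. The members gave between 252 reads (LOXL4) and 36506 reads (LOXL2) in a library, so LOXL4 had the least precise values. Levels are given as TMM-scaled CPM, read counts set to a common library total, which are comparable between libraries for 1 gene. Between genes, only levels per kilobase of transcript (RPKM, from the longest transcript) are compared. In NC, the mean RPKM was highest for LOXL1 at 162.9, followed by PLOD1 at 145.7, SERPINH1 at 127.7 and LOXL2 at 104.1. PLOD2 stood at 61.9, P4HA1 at 51.7, P4HA2 at 41.9, LOXL3 at 23.6, LOX at 20.0 and LOXL4 at 2.43 RPKM. This order depends on the length used: with the mean transcript length, LOXL2 came first at 433.6, and LOXL1 came after PLOD1 and SERPINH1 at 312.7. LOXL4 was the lowest with either length. In RNA from whole cultures, fewer cells of a type and less RNA per cell cannot be told apart.

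**Figure D1:**
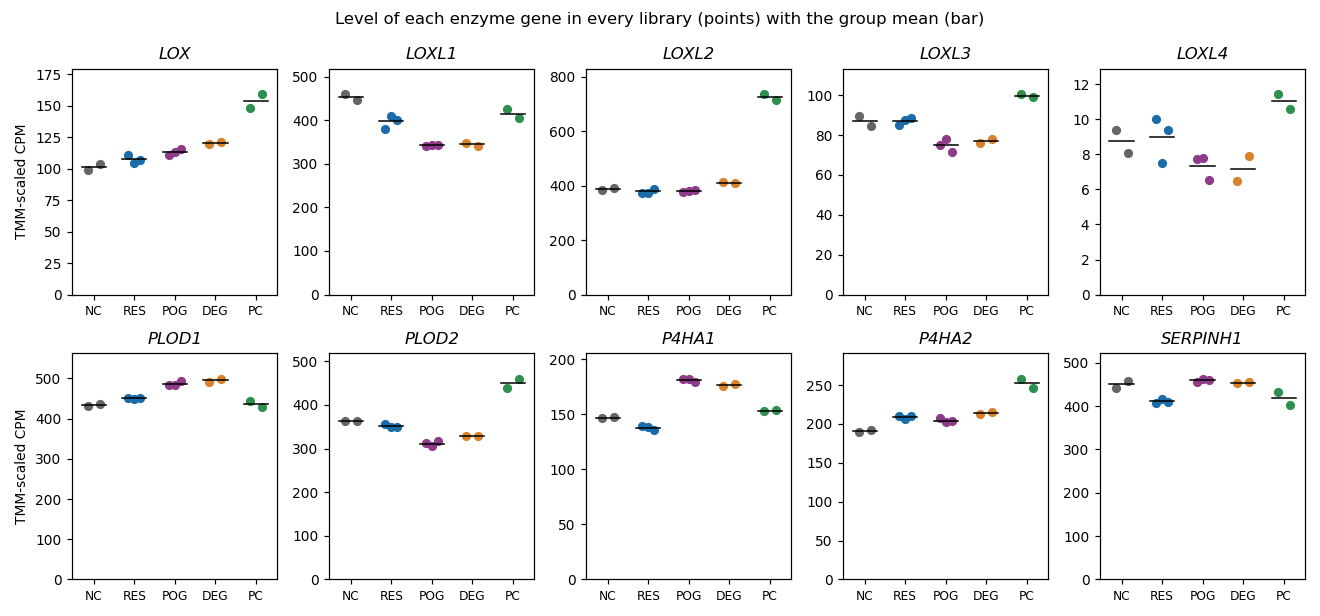
TMM-scaled CPM (linear axis from 0) of each of the 10 genes, with 1 point for every library and a bar for the group mean, in NC, RES, POG, DEG and PC. The 2 PC points stand far above the rest for LOXL2, and the 3 POG and 2 DEG points stand above the rest for P4HA1 and below the rest for LOXL1.

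The largest changes against NC, those of LOXL2 and LOX, came with serum. PC against NC asks what serum withdrawal changes in these cells. With serum, 6 members were higher (LOX, LOXL2, LOXL3, LOXL4, P4HA2 and PLOD2) and 2 were lower (LOXL1 and SERPINH1), while P4HA1 and PLOD1 missed the threshold, an FDR under 0.05 in edgeR's exact test. LOXL2 rose 1.88-fold and LOX 1.52-fold. Of all tested genes, 42.4% were called in this comparison, 21.4% higher and 20.9% lower, and of the 9951 genes within the members' range of mean level 56.1% were called, so a count of 8 in 10 has to be read against a high background. The median absolute log2 fold change was 0.25 over the members, 0.21 over all tested genes and 0.16 over those in the members' range of level. Scaling by plain totals turned the split of all calls from 3665 higher and 3580 lower to 3039 and 4366.

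Without serum, POG moved 7 members. P4HA1, PLOD1, LOX and P4HA2 were higher than in NC, and LOXL1, PLOD2 and LOXL3 were lower. The largest effects were on LOXL1, 1.33-fold lower, and P4HA1, 1.23-fold higher. In this comparison 14.5% of all tested genes were called, 5.93% higher and 8.57% lower, and 19.2% of the genes in the members' range of level. The median absolute log2 fold change was 0.19 over the members, 0.11 over all tested genes and 0.069 over those in the members' range of level. Scaling by plain totals turned the split of all calls from 1014 higher and 1464 lower to 1497 and 1179.

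DEG also moved 7 members against NC, with 4 higher (LOX, P4HA1, PLOD1 and P4HA2) and 3 lower (LOXL1, LOXL3 and PLOD2). LOXL1 was 1.32-fold lower and P4HA1 1.20-fold higher. The background was 9.63% of all tested genes, 3.52% higher and 6.11% lower, and 13.2% of those in the members' range of level. The POG and DEG comparisons share the 2 NC libraries, so the likeness of their lists is not independent. The split of all calls was 602 higher and 1044 lower, and 844 and 868 with plain totals.

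RES moved 3 members against NC: P4HA2 was 9.54% higher, LOXL1 1.14-fold lower and SERPINH1 1.09-fold lower. The background was 11.2% of all tested genes, 4.94% higher and 6.21% lower, and 14.97% of those in the members' range of level. The median absolute log2 fold change was 0.069 over the members, 0.098 over all tested genes and 0.064 over those in the members' range of level. With plain totals the split of all calls turned from 844 higher and 1062 lower to 1236 and 695.

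**Figure D2:**
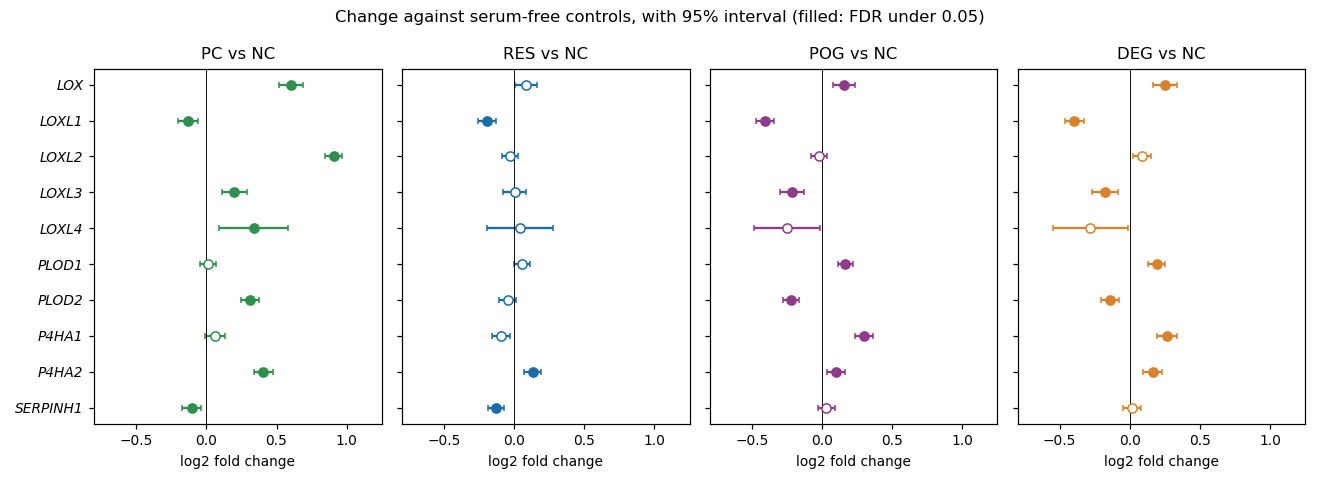
log2 fold change of each gene against NC with its 95% interval, in 4 panels for PC, RES, POG and DEG, where filled points passed an FDR of 0.05. LOXL2 is farthest right with serum at 0.91, P4HA1 is farthest right with POG at 0.30, and LOXL1 lies left of 0 in all 4 panels.

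P4HA1 encodes the catalytic subunit that pairs with P4HB to form the type I prolyl 4-hydroxylase (hg38, chromosome 10, 73007217 to 73096974, minus strand). It stood at 146 and 148 CPM in NC, 153 and 154 in PC, 139, 138 and 136 in RES, 182, 182 and 179 in POG, and 176 and 178 in DEG. Every POG and DEG library was above every other library, and every RES library was below every other. Against NC, POG raised it by 0.30 ± 0.0313 (log2 fold change ± SE, FDR 4.53e-16) and DEG by 0.27 ± 0.0342 (FDR 3.36e-10). With serum the log2 fold change was 0.06 (95% interval -0.01 to 0.13, FDR 0.212). With RES it was -0.09 (interval -0.16 to -0.03, FDR 0.0633). DESeq2 called this fall at an FDR of 0.035, and the exact test with dispersions from the compared groups at 0.017. P4HA1 shares 47 exon bases with a long non-coding RNA gene on the opposite strand.

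P4HA2 encodes the alternative catalytic subunit, which forms the type II enzyme with the same partner and is known from cartilage and bone (chromosome 5, 132190147 to 132295315, minus strand). Its levels were 190 and 192 CPM in NC, 258 and 247 in PC, 210, 207 and 210 in RES, 207, 202 and 203 in POG, and 212 and 215 in DEG. NC was lowest and PC highest without overlap with any other group. Serum raised it by 0.41 ± 0.0333 (FDR 1.16e-25) and DEG by 0.16 ± 0.0336 (FDR 0.000501). RES raised it by 0.13 ± 0.0307 (FDR 0.00308), a call lost without NC 1 (0.100, the highest of 13 alternatives, which reached down to 3.88e-05). POG raised it by 0.10 ± 0.0307 (FDR 0.0339), a call lost with no filter on low counts (0.0801) and when any 1 of NC 1 (0.256), NC 2 (0.144), POG 1 (0.148), POG 2 (0.0623) or POG 3 (0.0867) was left out, in a range from 0.000589 to 0.256 over 13 alternatives. P4HA2 shares 548 exon bases with P4HA2-AS1 on the opposite strand, and the strand setting of the counting is not given, so reads in the shared stretch may come from either gene.

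PLOD1 encodes lysyl hydroxylase 1, the enzyme for lysines within the triple helix and the gene mutated in kyphoscoliotic Ehlers-Danlos syndrome (chromosome 1, 11934205 to 11975538, plus strand). Its levels were 431 and 436 CPM in NC, 444 and 430 in PC, 451, 448 and 452 in RES, 483, 485 and 492 in POG, and 491 and 500 in DEG. The POG and DEG libraries lay above all others, the RES libraries lay just above both controls, and the 2 controls overlapped. The rise was 0.17 ± 0.0265 with POG (FDR 5.16e-06) and 0.19 ± 0.029 with DEG (FDR 2e-06). With RES the log2 fold change was 0.06 (FDR 0.294), and with serum it was 0.01 (interval -0.05 to 0.07, FDR 0.852).

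PLOD2 encodes lysyl hydroxylase 2, which acts on the telopeptides at the chain ends and so leads to hydroxylysine-derived crosslinks (chromosome 3, 146035139 to 146163725, minus strand). Its levels were 363 and 363 CPM in NC, 439 and 460 in PC, 355, 349 and 349 in RES, 313, 305 and 316 in POG, and 329 and 328 in DEG. No group overlapped another: PC was highest, then NC, RES, DEG and POG. Of these neighbours, NC and RES were not called different, nor were DEG and POG. How often tested genes separate like this was not counted, here or for the other members. Serum raised it by 0.31 ± 0.0311 (FDR 3.59e-16). POG lowered it, with a log2 fold change of -0.22 ± 0.0284 (FDR 2.04e-09). The fall with DEG was -0.14 ± 0.0314 (FDR 0.00236), a call lost without DEG 1 (0.0507), DEG 2 (0.0609) or NC 2 (0.0552), with 12 alternatives between 3.61e-07 and 0.0609. With RES the log2 fold change was -0.05 (FDR 0.425).

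The 2 lysyl hydroxylases thus moved apart with POG and DEG. The ratio of PLOD2 to PLOD1 reads was 0.842 and 0.833 in NC, and 0.989 and 1.07 in PC. It was 0.788, 0.779 and 0.773 in RES, 0.648, 0.630 and 0.642 in POG, and 0.671 and 0.657 in DEG. The groups did not overlap, and POG was lowest. The ratio of P4HA1 to P4HA2 reads was 0.771 and 0.770 in NC and 0.591 and 0.623 in PC. It was 0.664, 0.669 and 0.646 in RES, 0.881, 0.901 and 0.880 in POG, and 0.828 and 0.826 in DEG. PC and RES thus lay below NC, and POG and DEG above it, again without overlap between groups. These ratios do not depend on the scaling of the libraries, and they were not tested.

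**Figure D3:**
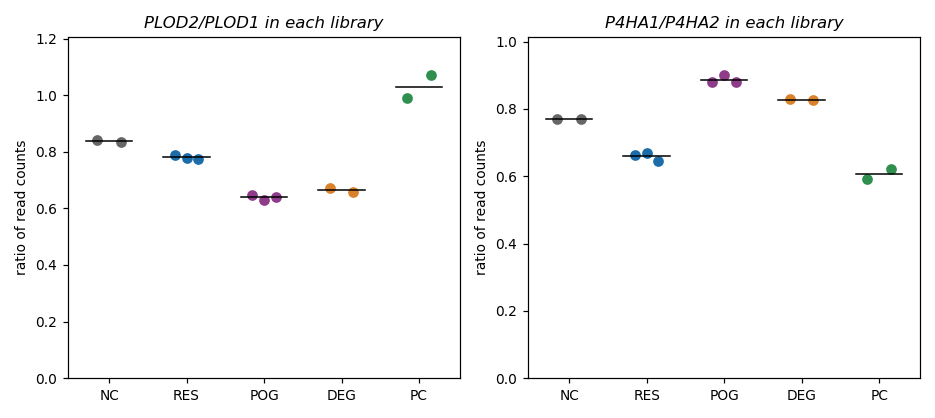
Ratio of read counts of PLOD2 to PLOD1 (left) and of P4HA1 to P4HA2 (right), on axes from 0, with 1 point for every library and a bar for the group mean. POG and DEG lie lowest on the left, with group means of 0.640 and 0.664, and highest on the right, with 0.887 and 0.827.

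SERPINH1 encodes the collagen chaperone HSP47, whose loss causes a recessive form of osteogenesis imperfecta (chromosome 11, 75562056 to 75572783, plus strand). Its levels were 443 and 457 CPM in NC, 433 and 403 in PC, 407, 416 and 410 in RES, 456, 464 and 459 in POG, and 454 and 455 in DEG. RES and PC were low and overlapped each other, while POG and DEG overlapped NC. The fall with RES was -0.13 ± 0.0292 (FDR 0.0032), a call lost without NC 2 (0.190, the highest of 13 alternatives, the lowest being 4.71e-06). The fall with serum was -0.11 ± 0.032 (FDR 0.0145), a call lost without NC 2 (0.234) or PC 2 (0.191) and with dispersions from the compared groups (0.173), in a range from 1.67e-06 to 0.234 over 12 alternatives. Without PC 2 the log2 fold change was -0.047. With POG it was 0.03 (interval -0.03 to 0.09) and with DEG 0.01 (interval -0.05 to 0.08), neither past the threshold.

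LOX encodes lysyl oxidase itself (chromosome 5, 122063195 to 122078413, minus strand). Its levels were 98.9 and 104 CPM in NC, 148 and 160 in PC, 111, 104 and 107 in RES, 111, 113 and 115 in POG, and 120 and 121 in DEG. PC stood well apart, DEG lay above POG and RES, and POG and RES overlapped. Serum raised LOX by 0.60 ± 0.0422 (FDR 3.13e-38) and DEG by 0.25 ± 0.0429 (FDR 3.31e-06). The rise with POG was 0.16 ± 0.0392 (FDR 0.00277), a call lost without NC 1 (0.171, the highest of 13 alternatives, the lowest being 3.29e-06). With RES the log2 fold change was 0.08 (FDR 0.218). LOX shares 138 exon bases with SRFBP1 on the opposite strand.

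LOXL1 encodes the family member tied to elastic fibre upkeep (chromosome 15, 73925989 to 73952137, plus strand). Its levels were 461 and 447 CPM in NC, 425 and 405 in PC, 380, 410 and 401 in RES, 341, 344 and 343 in POG, and 349 and 342 in DEG. NC was above every other library, POG and DEG were lowest and overlapped, and PC and RES lay between and overlapped. LOXL1 was thus the 1 member that fell in all 4 comparisons with NC. The log2 fold change was -0.41 ± 0.0309 with POG (FDR 2.33e-27), -0.40 ± 0.0342 with DEG (FDR 1.02e-20) and -0.19 ± 0.0309 with RES (FDR 4.14e-06). With serum it was -0.13 ± 0.034 (FDR 0.00321), a call lost without NC 1 (0.0807) and with dispersions from the compared groups (0.0737), in a range from 2.89e-06 to 0.0807 over 12 alternatives. All 4 falls share the NC libraries. LOXL1 shares 335 exon bases with LOXL1-AS1 on the opposite strand.

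LOXL2 encodes a secreted lysyl oxidase known for its action on type IV collagen (chromosome 8, 23296897 to 23425328, minus strand). Its levels were 384 and 391 CPM in NC, 738 and 714 in PC, 374, 375 and 389 in RES, 378, 381 and 385 in POG, and 415 and 409 in DEG. PC was far above the rest, DEG lay just above the other serum-free groups, and NC, RES and POG overlapped. Serum raised LOXL2 by 0.91 ± 0.0304 (FDR 1.21e-137), the largest change among the members in any comparison with NC. The log2 fold change was -0.03 with RES (interval -0.09 to 0.03) and -0.02 with POG (interval -0.08 to 0.04, and 0.0025 with plain totals), neither called. With DEG it was 0.09 (interval 0.03 to 0.15, FDR 0.117), which 3 of 12 alternatives called, namely DESeq2 (0.048), plain totals (0.0339) and dispersions from the compared groups (0.00425). LOXL2 shares 120 exon bases with ENTPD4 on the same strand and 178 with LOXL2-AS1 on the opposite strand.

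LOXL3 encodes a lysyl oxidase needed for the development of palate and spine (chromosome 2, 74532258 to 74555690, minus strand). Its levels were 89.5 and 84.3 CPM in NC, 101 and 98.9 in PC, 85.3, 87.3 and 88.5 in RES, 75.1, 77.9 and 71.6 in POG, and 76.0 and 78.0 in DEG. PC was highest, NC and RES overlapped, and POG and DEG were lowest and overlapped. Serum raised it by 0.20 ± 0.0439 (FDR 8.62e-05). The log2 fold change was -0.21 ± 0.0407 with POG (FDR 2.09e-05) and 0.0025 with RES (interval -0.08 to 0.09). With DEG it was -0.17 ± 0.0451 (FDR 0.00553), a call lost without NC 1 (0.228) or DEG 1 (0.141), in a range from 0.000175 to 0.228 over 12 alternatives. LOXL3 shares 936 exon bases with HTRA2 and 216 with DOK1, both on the opposite strand, so part of its counts may belong to them.

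LOXL4 shares 152 exon bases with a long non-coding RNA gene on the opposite strand. LOXL4 was the member with the lowest level (chromosome 10, 98247690 to 98268194, minus strand). Its levels were 9.40 and 8.09 CPM in NC, 11.5 and 10.6 in PC, 10.0, 7.51 and 9.42 in RES, 7.72, 7.80 and 6.56 in POG, and 6.51 and 7.88 in DEG. PC was above every other library, POG and DEG were below NC, and RES spread over the range of NC. Serum raised it by 0.34 ± 0.121 (FDR 0.0175), a call lost without NC 2 (0.240) or PC 1 (0.0743), in a range from 0.00411 to 0.240 over 12 alternatives. The log2 fold change was -0.25 ± 0.116 with POG (interval -0.49 to -0.01, FDR 0.146) and -0.28 ± 0.13 with DEG (interval -0.55 to -0.01, FDR 0.179), neither past the threshold.

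Per kilobase of the longest transcript, LOXL1 and LOXL2 made up most of the lysyl oxidase family. LOXL1 was then above LOXL2 in NC and below it in PC. LOXL1 gave 52.1% ± 0.675 of the family's reads per base in NC (SD, n = 2) and 36.8% ± 0.470 in PC (SD, n = 2). LOXL2 gave 33.3% ± 0.738 in NC and 48.3% ± 0.115 in PC. The LOXL1 share was 48.8% ± 1.09 in RES (SD, n = 3), 45.5% ± 0.0645 in POG (SD, n = 3) and 44.1% ± 0.307 in DEG (SD, n = 2), so each serum-free treatment lay between NC and PC. The summed family level, in contrast, was 315 and 311 RPKM in NC, 411 and 399 in PC, 285, 294 and 296 in RES, 268, 271 and 271 in POG, and 283 and 280 in DEG. PC was thus highest and the compounds were all below NC. The LOXL2 share was 34.9% ± 0.631 in RES, 37.97% ± 0.281 in POG and 39.3% ± 0.121 in DEG. The order rests on the length used: with the mean transcript length LOXL2 was above LOXL1 in every group, at 433.6 against 312.7 RPKM in NC and 813.2 against 285.7 in PC.

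**Figure D4:**
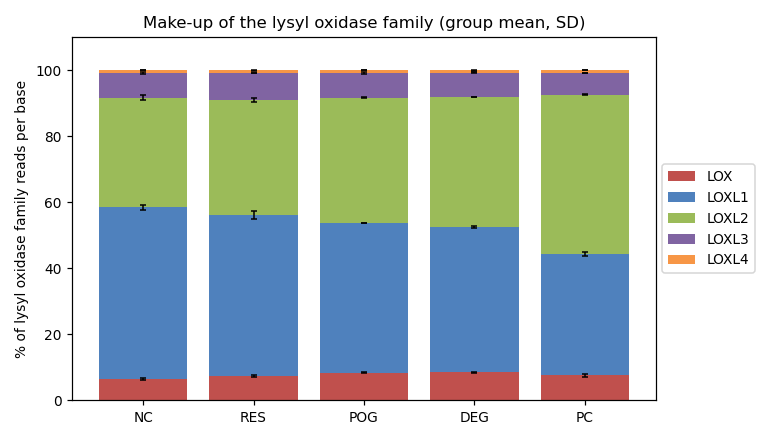
Share of the lysyl oxidase family's reads per base (percent, stacked bars from 0, group means with SD) given by LOX, LOXL1, LOXL2, LOXL3 and LOXL4 in NC, RES, POG, DEG and PC. LOXL1 takes 52.1% in NC and 36.8% in PC, where LOXL2 takes 48.3%.

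The compounds were next compared with each other in 3 pairs, with p-values adjusted over all tested genes within each pair. Their dose of 1 µg/mL was matched by mass, which need not be an equal molar dose. Resveratrol is a stilbene without a sugar and POG is an anthocyanin carrying a glucose. POG differed from RES in 7 members: P4HA1, SERPINH1 and PLOD1 were higher with POG, and LOXL1, LOXL3, LOXL4 and PLOD2 were lower. The background was 27.9% of all tested genes, 13.7% higher and 14.1% lower, and 36.8% of those in the members' range of level. P4HA1 showed the largest difference, 0.39 ± 0.0277 (FDR 1.64e-35), or 1.31-fold. SERPINH1 was 0.16 ± 0.0261 higher (FDR 2.42e-06) and PLOD1 0.11 ± 0.0235 higher (FDR 0.000592). The differences were -0.22 ± 0.0362 for LOXL3 (FDR 2.75e-07), -0.21 ± 0.0278 for LOXL1 (FDR 1.08e-09) and -0.17 ± 0.0255 for PLOD2 (FDR 1.03e-07). For LOXL4 the difference was -0.29 ± 0.102 (FDR 0.0205), a call lost without POG 3 (0.177), RES 1 (0.194) or RES 3 (0.101), in a range from 0.000798 to 0.194 over 14 alternatives, and its libraries overlapped. LOX (interval 0.00 to 0.15), LOXL2 (interval -0.04 to 0.06) and P4HA2 (interval -0.09 to 0.02) missed the threshold, which LOX passed with dispersions from the compared groups (0.0204).

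DEG differed from RES in 9 members, against a background of 21.2% of all tested genes and 28.1% of those in the members' range of level. P4HA1 was 0.36 ± 0.031 higher (FDR 4.31e-23), LOX 0.17 ± 0.0386 higher (FDR 0.00065), SERPINH1 0.14 ± 0.0292 higher (FDR 0.000347) and PLOD1 0.14 ± 0.0263 higher (FDR 0.000197). LOXL1 was lower, with a difference of -0.20 ± 0.0314 (FDR 8.47e-07). The other 4 calls were less stable. LOXL2 was 0.12 ± 0.0278 higher (FDR 0.00303, and 0.0978 without DEG 1, the highest of 13 alternatives, the lowest being 4.21e-06). LOXL3 differed by -0.18 ± 0.041 (FDR 0.000604, and 0.0529 without DEG 1, the highest of 13, the lowest being 4.82e-06). PLOD2 differed by -0.10 ± 0.0286 (FDR 0.0244). This call was lost with no filter on low counts (0.0705) and without RES 1 (0.0966), RES 2 (0.0519) or RES 3 (0.0519). It was also lost without DEG 1 (log2 fold change -0.0979) or DEG 2 (-0.0933). The lowest FDR of PLOD2 among the alternatives was 0.000293. LOXL4 differed by -0.32 ± 0.118 (FDR 0.0332), lost without DEG 1 (0.491), RES 1 (0.211) or RES 3 (0.120) and with DESeq2 (0.0683) or the quasi-likelihood test (0.0536), in a range from 0.00202 to 0.491. Without DEG 1, which leaves a lone DEG library, fewer members were called, as were fewer of all tested genes. P4HA2 missed the threshold (interval -0.03 to 0.09).

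DEG and POG differed in 0 members by edgeR's exact test. The background was 1.05% of all tested genes and 1.46% of those in the members' range of level. At an unadjusted p under 0.05 there were 3. The quasi-likelihood test called 0, DESeq2 called 1 (LOXL2, FDR 0.0147), and dispersions from the compared groups gave 3 (LOX 0.0275, LOXL2 4.78e-06 and PLOD2 0.00724). The widest interval was that of LOXL4, from -0.28 to 0.21. LOX (0.09, interval 0.01 to 0.17), LOXL2 (0.11, interval 0.05 to 0.17) and PLOD2 (0.08, interval 0.02 to 0.14) had DEG libraries that were all higher than the POG libraries, as had P4HA2 (0.07, interval 0.0031 to 0.13). For P4HA1 (-0.04, interval -0.10 to 0.03) and SERPINH1 (-0.02, interval -0.08 to 0.04) all DEG libraries were lower than the POG libraries. LOXL1, LOXL3, LOXL4 and PLOD1 overlapped. With 2 libraries against 3, such separation can easily arise without a difference. Its share over all tested genes was not counted, so it does not set these members apart. A missed threshold here does not show that the 2 compounds act alike.

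Against the serum-fed cultures, all 10 members differed from POG and all 10 from DEG, where 47.9% and 43.4% of all tested genes were called. Among genes in the members' range of level, 61.9% and 57.4% were called. In both, LOX, LOXL1, LOXL2, LOXL3, LOXL4, P4HA2 and PLOD2 were higher with serum, and P4HA1, PLOD1 and SERPINH1 were lower. SERPINH1 in PC against DEG (-0.12, FDR 0.00468) lost its call without PC 2 (0.0636) and with dispersions from the compared groups (0.0896), in a range from 8.66e-08 to 0.0896 over 12 alternatives. Against RES, 7 members were called, all higher with serum. The background was 45.7% of all tested genes and 60.4% of those in the members' range of level. The called members were LOX, LOXL2, LOXL3, LOXL4, P4HA1, P4HA2 and PLOD2. The LOXL4 call (0.30, FDR 0.0178) was lost without PC 1 (0.105) or RES 2 (0.181) and with plain totals (0.0816), in a range from 0.00438 to 0.181 over 13 alternatives. LOXL1 and SERPINH1 in PC against RES were not called but passed the threshold without PC 2 (0.00121 and 0.00749). PLOD1 was not called either but passed with plain totals (-0.115, FDR 0.000789). With plain totals the split of all calls moved from 3970 higher and 3848 lower to 2797 and 5246 for RES, from 4128 and 4067 to 3113 and 5367 for POG, and from 3812 and 3614 to 2879 and 4757 for DEG.

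Ordered by mean level over the 5 groups, LOX ran from PC through DEG, POG and RES to NC, and only PC and DEG differed among neighbours. For P4HA1 the order was POG, DEG, PC, NC and RES, where only DEG and PC differed. For P4HA2 it was PC, DEG, RES, POG and NC, with differences between PC and DEG and between POG and NC. PLOD1 ran from DEG through POG, RES and PC to NC, and only POG and RES differed. PLOD2 ran from PC through NC, RES and DEG to POG, with differences between PC and NC and between RES and DEG. LOXL1 ran from NC through PC, RES and DEG to POG, with differences between NC and PC and between RES and DEG. LOXL2 ran from PC through DEG, NC and POG to RES, LOXL4 from PC through RES, NC and POG to DEG, and in both only PC and the group after it differed. LOXL3 ran from PC through RES, NC and DEG to POG, with differences between PC and RES and between NC and DEG. SERPINH1 ran from POG through DEG, NC and PC to RES, and only NC and PC differed. Here neighbours differed if the exact test called them, and uncalled neighbours are not shown to be equal. Some of these calls were lost in at least 1 alternative: P4HA2 between POG and NC, PLOD2 between RES and DEG, and LOXL4 between PC and RES. The same held for LOXL3 between NC and DEG, and for LOXL1 and SERPINH1 between NC and PC.

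The members were also compared with each other over the 12 libraries. The Pearson correlation of log2 CPM was 0.931 between LOX and P4HA2, 0.923 between LOX and LOXL2 and 0.919 between LOXL3 and PLOD2, whereas it was -0.932 between LOXL1 and PLOD1. Within the lysyl oxidase family it ran from -0.08 (LOX and LOXL1) to 0.923, with 0.884 between LOXL3 and LOXL4 and 0.768 between LOXL1 and LOXL3. The points share groups, and the 2 PC libraries weigh heavily. Of all tested genes that are not members, the one most like LOXL2 was FOSL1 (r = 0.994 over 12 libraries), the one most like PLOD2 was FGF2 (0.993), and the one most like SERPINH1 was TMED1 (0.987). LOXL3 was most like AMIGO2 (0.981), P4HA1 most like CSRP2 (0.977), P4HA2 most like ICAM1 (0.976) and LOXL1 most like SLC4A2 (0.9749). LOX was most like BUB1 (0.974), LOXL4 most like ATG5 (0.962) and PLOD1 most like PHLDB3 (0.948). These are the highest values among all tested genes and describe likeness only.

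Genes that act beside the members were taken from lists covering 40 genes, of which 39 were tested. Among them 21 were called with serum (16 higher, 5 lower), 12 with RES (2 higher, 10 lower), 17 with POG (6 higher, 11 lower) and 12 with DEG (5 higher, 7 lower). The background over all tested genes was 42.4% for PC, 14.5% for POG, 11.2% for RES and 9.63% for DEG against NC, and over genes in the members' range of level it was 56.1% with serum. The RES count fell to 7 without NC 1, 5 without NC 2 and 7 without RES 2, and the POG count to 11 without NC 1. Of the 8 prolyl hydroxylation partners, serum raised 3 and lowered 1, RES lowered 3 (P4HA3, P3H3 and P4HB), and POG and DEG called 0 by edgeR. P4HB, the shared partner of P4HA1 and P4HA2, had a log2 fold change of 0.15 with serum (FDR 0.000111), -0.16 with RES (FDR 3.18e-05), 0.04 with POG (FDR 0.533) and 0.07 with DEG (FDR 0.240). P4HA1 thus rose with POG and DEG while P4HB missed the threshold. PLOD3, the remaining lysyl hydroxylase, was 0.15 higher with serum (FDR 0.00109) and -0.11 with RES (FDR 0.0318). P4HA3, a further catalytic subunit of prolyl 4-hydroxylase, fell with RES (-0.17 ± 0.0464, FDR 0.00632).

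Of the 10 procollagen folding and export genes, 6 rose and 1 fell with POG, 5 rose with DEG, 1 rose with RES, and 4 rose and 1 fell with serum. Over all tested genes, 14.5% were called with POG, 9.63% with DEG, 11.2% with RES and 42.4% with serum. FKBP10, a prolyl isomerase that works with lysyl hydroxylase 2, rose by 0.19 ± 0.0269 with POG (FDR 3.92e-07). SEC24D, a coat protein of the vesicles that carry procollagen, rose by 0.16 ± 0.0313 with POG (FDR 0.000111) and by 0.26 ± 0.0343 with DEG (FDR 3.59e-09). FKBP14, another isomerase of the endoplasmic reticulum, rose by 0.16 ± 0.0468 with POG (FDR 0.0119) and 0.21 ± 0.0514 with DEG (FDR 0.00222). KDELR2, the receptor that returns chaperones such as SERPINH1 to the endoplasmic reticulum, rose by 0.20 ± 0.0308 with DEG (FDR 9.97e-07). CREB3L1, a transcription factor for collagen secretion genes, rose by 0.10 ± 0.0331 with RES (FDR 0.0482). MIA3, which loads procollagen into export vesicles, fell with serum (-0.27 ± 0.0406, FDR 1.16e-08). Between POG and RES, where 13.7% of all tested genes were called higher and 14.1% lower, 8 of the 10 were higher with POG. Among them were FKBP10 (0.23, FDR 2.46e-13), KLHL12 (0.23, FDR 1.66e-06) and FKBP14 (0.22, FDR 3.94e-06), and CREB3L1 was lower (-0.26, FDR 1.77e-13). DEG was likewise above RES in SEC24D (0.28, FDR 1.27e-13), FKBP14 (0.27, FDR 6.07e-07) and KDELR2 (0.25, FDR 3.45e-12).

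Collagen and elastin genes, the substrates, fell or were not called with the compounds. Of 6 substrate genes, POG lowered 5, RES 3 and DEG 3, and 0 rose by edgeR's test. Serum lowered 2 and raised 1, ELN, at a mean of only 0.543 CPM in PC and 0.103 in NC. Over all tested genes, 8.57% were called lower with POG, 6.21% with RES and 6.11% with DEG. With serum, 20.9% of all tested genes were called lower and 21.4% higher. COL3A1, the chain of type III collagen, fell in all 4 comparisons, with log2 fold changes of -0.93 ± 0.0262 with serum (FDR 2.81e-161), -0.55 ± 0.0234 with RES (FDR 2.12e-69), -0.56 ± 0.0234 with POG (FDR 7.17e-71) and -0.58 ± 0.026 with DEG (FDR 3.52e-62). COL1A2, a chain of type I collagen, fell by 0.26 on the log2 scale with DEG (FDR 2.93e-13). P4HA1 and PLOD1 thus rose with POG and DEG while collagen chain genes fell in the same libraries.

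Among the 5 crosslinking partners, TGM2, a transglutaminase, rose by 1.13 ± 0.0404 with serum (FDR 2.07e-150) and 0.44 ± 0.0379 with RES (FDR 3.11e-24). It fell with POG (-0.47 ± 0.0387, FDR 1.16e-26) and DEG (-0.32 ± 0.0429, FDR 9.06e-10). Between compounds, TGM2 was lower than with RES in POG (-0.91, FDR 2.09e-133) and in DEG (-0.75, FDR 7.71e-71). It was also the 1 pathway gene called between DEG and POG (0.15, FDR 0.0406), a call lost under the quasi-likelihood test, without the filter, with plain totals and with any 1 library left out. POSTN, a matrix protein that helps activate LOX, rose by 1.00 ± 0.0435 with serum (FDR 6.19e-101) and fell with POG (-0.35 ± 0.0412, FDR 5.11e-13). FN1, fibronectin, fell with RES (-0.27 ± 0.0313, FDR 4.30e-10). Of 7 tested propeptide removal genes, serum raised 3, among them ADAMTS2, the N-proteinase (0.89 ± 0.0417, FDR 2.26e-87), and lowered 1, BMP1, the C-proteinase that also activates LOX (-0.41 ± 0.0319, FDR 3.50e-28). RES, POG and DEG each lowered 2 of the 7. Over all tested genes, 42.4% were called with serum, 21.4% higher and 20.9% lower. The share called lower was 6.21% with RES, 8.57% with POG and 6.11% with DEG. DEG was below RES in ADAMTS3, another N-proteinase (-0.40, FDR 0.00628), and in COLGALT2, a collagen galactosyltransferase with a mean of 1.90 CPM in DEG (-0.49, FDR 0.0234). POSTN was lower with POG than with RES (-0.23, FDR 1.34e-07).

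**Figure D5:**
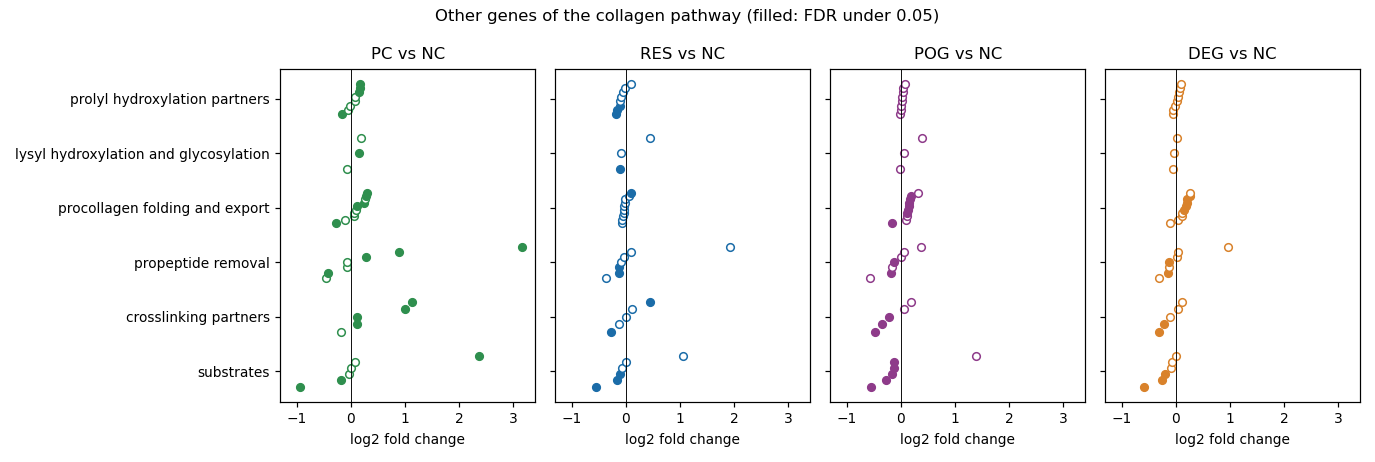
log2 fold change against NC of the 39 tested pathway genes, in rows by list and in 4 panels for PC, RES, POG and DEG, where filled points passed an FDR of 0.05. In the POG panel the filled points of procollagen folding and export lie mostly right of 0 (6 of 7) and those of the substrates left of 0 (5 of 5).

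A list of 12 hypoxia-responsive genes, of which 11 were tested, was read beside P4HA1, PLOD2 and LOX. With serum 6 rose and 0 fell, with POG 0 rose and 5 fell, with RES 0 rose and 3 fell, and with DEG 2 rose and 5 fell, all by edgeR's test. Over all tested genes the background was 42.4% with serum (56.1% in the members' range of level), 14.5% with POG, 11.2% with RES and 9.63% with DEG. VEGFA, the angiogenic factor, changed by 1.20 ± 0.0322 with serum (FDR 6.08e-237), -0.42 ± 0.0298 with POG (FDR 7.43e-32), -0.38 ± 0.0331 with DEG (FDR 4.18e-21) and -0.21 ± 0.0298 with RES (FDR 5.01e-08). CA9, a carbonic anhydrase, rose by 1.69 ± 0.178 with serum (FDR 2.58e-19) and 0.88 ± 0.192 with DEG (FDR 0.000219). PDK1 rose by 0.28 ± 0.0689 with DEG (FDR 0.00164). ADM, the gene of adrenomedullin, fell with POG (-0.48 ± 0.0553, FDR 8.66e-15) and DEG (-0.30 ± 0.061, FDR 0.000102), and NDRG1 fell with RES (-0.41 ± 0.0323, FDR 6.60e-28). Under POG, P4HA1 and LOX rose while PLOD2 fell beside VEGFA.

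Of 8 osteoblast markers, 6 were at or above 1 CPM, and SP7 and IBSP fell below the filter on low counts. Their summed level was 4043 to 4102 CPM in PC, 3932 to 3956 in NC, 3714 to 3816 in RES, 3638 to 3665 in POG and 3632 to 3655 in DEG. SPARC averaged 1150 CPM in PC, 1045 in NC, 1022 in RES, 1060 in POG and 1105 in DEG. SPARC was thus higher with POG and DEG than in NC, whereas the sum was lower. RUNX2 averaged 47.1 CPM in NC. Most of the rest of the sum was COL1A1, a substrate called lower with POG and DEG. The 4 endothelial markers summed to 56.5 to 59.7 CPM in PC, 52.8 to 59.5 in RES, 42.3 to 44.1 in NC, 35.2 to 37.3 in POG and 38.1 to 38.6 in DEG. Nearly all of that sum was TEK, with a mean of 55.1 CPM in PC, 53.4 in RES, 40.3 in NC, 34.5 in POG and 36.1 in DEG. PECAM1 averaged 2.29 CPM in NC and 1.57 in PC, the opposite order to TEK, and CDH5 was at most 0.112 CPM in any library and at 0 in both NC libraries. Macrophage or osteoclast markers summed to 16.2 to 17.4 CPM in RES and 13.6 to 15.3 elsewhere. Chondrocyte markers summed to 8.07 to 8.08 CPM in PC, 4.83 to 6.76 in NC, 5.88 to 6.95 in RES, 4.08 to 4.73 in POG and 5.37 to 5.91 in DEG. The osteoblast, endothelial, macrophage or osteoclast and chondrocyte sums thus moved with some of the groups, and their part in the members' changes was not tested. Adipocyte markers summed to 0.465 to 1.17 CPM with LEP at 0, and epithelial markers to 0.473 to 0.920.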

How the data were processed

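The file deposited by the authors holds raw counts (whole reads per Ensembl gene, without normalization), 1 column for each library. Per the submitters' processing notes and the study's methods, reads were aligned to hg38 with STAR (BWA MEM is also named), counted over Ensembl genes with featureCounts and tested with edgeR. Program versions, the annotation release, the strand setting and how multi-mapped reads were handled are not given in the sources used here. Of 13 labelled samples, 12 had a column, and DEG replicate 3 was not analysed here. Replicate numbers follow accession order and only name libraries.

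From the 43836 rows, 43214 matched a symbol. filterByExpr (grouped by treatment) kept 17092 genes. Counts were scaled by TMM and tested with the exact test of edgeR 4.0.16 in R 4.3.3, with tagwise dispersions over all 12 libraries (common biological coefficient of variation 3.21%) and Benjamini-Hochberg adjustment over all tested genes. A gene was called at an FDR under 0.05. Standard errors and 95% intervals came from edgeR's quasi-likelihood fit. RPKM used transcript lengths from GENCODE v44, and correlations used log2 CPM with a prior count of 2. The test was checked on simulated counts. Promoter windows are from RefSeq (GRCh38.p14). The members, lists and comparisons were chosen with earlier results of these data known. All members are named, with the 3 largest called changes each way among pathway genes that averaged 1 CPM or more in either of the groups, at most 2 each way among hypoxia-responsive genes, and the 1 gene most alike each member. P4HB, PLOD3, P3H3 and ELN fall outside this rule and were named after their values were seen. Alternatives were the quasi-likelihood test, DESeq2 1.42.0, its size factors, plain totals, no filter, a filter at a mean of 1 CPM, dispersions from the compared groups, an FDR of 0.01, and leaving out each library.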

Additional observations from a re-analysis of the deposited data

How the results depend on the processing

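For the 10 genes in 10 comparisons, 1280 alternative values were computed. Direction and side of the threshold held in 1202, 49 lost a call, 13 gained one and 16 changed sign, all 16 where neither value was called. Of 68 calls, 52 held under every alternative run. Of the 16 that did not, 4 were of LOXL4, and 34 of the 49 losses came from leaving out 1 library. The cause of these changes was not tested, apart from the fewer libraries or stricter limit that an alternative itself sets. With plain totals, the log2 fold change turned to -0.00697 for LOXL1 and -0.0458 for SERPINH1 in PC against RES, 0.00253 for LOXL2 in POG against NC and -0.0322 for PLOD1 in PC against NC. With 1 library left out, the log2 fold changes that changed sign at least once ran from -0.00417 to 0.0254 for LOXL1 and from -0.177 to 0.0995 for LOXL4 in DEG against POG, from -0.000652 to 0.0278 for LOXL2 in POG against RES, from -0.0370 to 0.0457 for LOXL3 and from -0.0609 to 0.155 for LOXL4 in RES against NC, from -0.00698 to 0.0414 for PLOD1 in PC against NC, from -0.00923 to 0.0414 for SERPINH1 in DEG against NC and from -0.0240 to 0.0811 for SERPINH1 in PC against RES.

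Members called between DEG and RES numbered 5 to 8 with 1 library left out. Between DEG and POG they numbered 1 with DESeq2 and 3 with dispersions from the compared groups. Pathway genes called with RES against NC numbered 5 to 11 with 1 library left out, and those with POG against NC from 11 to 18. Between DEG and POG the 1 called pathway gene became 0 with an FDR of 0.01, no filter, plain totals, the quasi-likelihood test or any 1 library left out, and 7 with dispersions from the compared groups. No paired analysis was possible because the labels carry no replicate numbers. Depth limited LOXL4 most, at 252 reads in its lowest library. With groups of 2 or 3 libraries, leaving 1 out can leave a lone library, which is then assumed to vary like the others.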
